A study of Mus musculus with 10 samples.

Results

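The comparison described here is that of null-labelled with control pancreas at embryonic day 13.5 in the Fgf9 LacZ mouse line. It holds 5 of the 10 RNA-seq libraries of the series, 3 controls and 2 null-labelled, and its members were taken by stage and genotype label alone. The line was kept on a C57BL/6J background. Control pools mixed Fgf9 +/+ and +/- embryos, so a part of the control RNA may come from embryos with a single intact allele, and the labels do not give the share of each genotype. The null-labelled pools were of Fgf9 -/- embryos. No Cre driver or tissue restriction is named in the labels. Each library was made from poly(A) RNA of whole dissected pancreata, pooled from 12, 7 and 12 organs in controls 1, 2 and 3 and from 7 and 6 organs in null-labelled pools 1 and 2. The other 5 libraries, at embryonic day 14.5, have the same genotypes and serve here to estimate the spread and as a second stage.

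FGF9 is a secreted fibroblast growth factor. In the developing lung and gut of the mouse it is made mainly by epithelium and mesothelium, and it acts on receptors of the neighbouring mesenchyme. FGF receptors signal through the MAP kinase cascade, which induces feedback inhibitors of the Sprouty and DUSP families. The embryonic pancreas is an epithelial tree that gives rise to acinar, duct and endocrine cells, wrapped in mesenchyme that supports its growth. The spleen primordium forms within the mesenchyme on the dorsal side, and its mesenchyme is known for the homeobox factors Tlx1, Nkx3-2, Barx1 and Nkx2-5.

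Genes that fell in the null-labelled pools included homeobox factors of spleen and stomach mesenchyme (Tlx1, Barx1, Nkx3-2), the Wnt ligand Wnt5a, the neurotrophin receptor Ntrk2 and the protease Htra1. Genes that rose included the matrix proteoglycans Lum and Dcn, smooth muscle actin Acta2, and genes known from blood vessels such as Angpt1, Vwf, Calcrl and Edn1. Of 18898 genes tested, 25 were higher (0.132 percent) and 33 were lower (0.175 percent). No listed gene of the acinar, duct, endocrine or progenitor programmes passed the test. A gene is said to rise or fall here where edgeR's quasi-likelihood test gave a p adjusted by the Benjamini-Hochberg method over all tested genes (adjusted p) under 0.05. Levels are CPM, a gene's reads relative to the size of its library after correction with TMM factors, which hold the bulk of genes level between libraries, and a log2 fold change is null-labelled minus control with its standard error (SE). In RNA of a whole organ, fewer cells of a type and less RNA per cell cannot be told apart.

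A set of 6 genes passed the test in each of the 10 fits that left out 1 library: Tlx1, Barx1, Wnt5a, Htra1 and Ntrk2 among the lower ones and Egr1 among the higher. The bases before the annotated start of the 4 of these with an entry in the promoter table used here are printed because those genes carry the comparison. Wnt5a and Egr1 are named only. The sequences are from RefSeq on GRCm38.p6, all on the plus strand, 5′ to 3′, limited to bases outside the annotated gene, with CpG dinucleotides in capitals. They are, in order, chr19:45150465-45150679, chr13:48662786-48662997, chr7:130935953-130936110 and chr13:58806319-58806568.
Tlx1: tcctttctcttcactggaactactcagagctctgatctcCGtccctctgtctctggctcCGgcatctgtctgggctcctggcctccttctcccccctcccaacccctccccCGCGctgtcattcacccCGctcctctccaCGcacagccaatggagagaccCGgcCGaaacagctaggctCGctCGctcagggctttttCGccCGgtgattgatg
Barx1: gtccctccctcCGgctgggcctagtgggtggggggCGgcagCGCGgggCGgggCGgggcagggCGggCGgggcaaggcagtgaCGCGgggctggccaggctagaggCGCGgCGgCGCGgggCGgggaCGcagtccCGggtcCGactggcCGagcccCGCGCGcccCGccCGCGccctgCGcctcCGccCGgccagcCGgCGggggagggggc
Htra1: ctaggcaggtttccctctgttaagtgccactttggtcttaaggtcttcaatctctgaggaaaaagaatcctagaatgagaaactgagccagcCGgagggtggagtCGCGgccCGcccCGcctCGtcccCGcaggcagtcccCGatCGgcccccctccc
Ntrk2: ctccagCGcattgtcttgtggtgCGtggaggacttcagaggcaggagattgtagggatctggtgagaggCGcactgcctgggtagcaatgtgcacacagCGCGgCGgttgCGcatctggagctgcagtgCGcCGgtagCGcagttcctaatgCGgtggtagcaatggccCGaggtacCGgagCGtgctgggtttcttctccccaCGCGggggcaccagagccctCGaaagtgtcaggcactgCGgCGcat
The stretches hold 12, 31, 9 and 19 CpG, in the same order, over 215, 212, 158 and 250 bases. For the full 250 bases before the start, medians were taken over promoter entries, so a gene with several entries counted more than once. The median was 14 CpG over the 16463 entries of 12900 tested genes. It was 15 over the 37 entries of 27 lower genes and 8.5 over the 20 entries of 15 higher genes. These counts are a description of 42 of the 58 called genes, matched by symbol. The motif counted was CG, which reads the same on both strands.

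The 5 libraries had total counts of 18004724 to 22798257, and mitochondrial transcripts made up 2.31 to 3.39 percent of them. Control 1 and null-labelled pool 1 stood apart from the other 3 libraries. They had 25908 and 25212 genes with a count, against 21655 to 22431 in the others, and on the first principal component, with 35.2 percent of the variance, they lay at -43.5 and -49.6 against 14.7 to 41.5. The second component, with 29.9 percent, placed the null-labelled pools at -10.6 and -62.2 and the controls at 2.44 to 39.5. Litters are not named in the labels. The p-values therefore rest on how far pools of a group differ from each other, over all 10 libraries of the fit, and this spread may be technical in part.

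The targeted gene was measured first. Fgf9 (ENSMUSG00000021974, chromosome 14, 58070547 to 58112720) was at 18.4, 11.3 and 16.2 CPM in the 3 controls against 5.57 and 7.66 CPM in the null-labelled pools. Both null-labelled pools lay below all controls, and the log2 fold change was -1.21 (SE 0.36, edgeR adjusted p = 0.29), which did not pass the test. At E14.5 the log2 fold change of Fgf9 was -0.14 (edgeR adjusted p = 0.96). Reads summed over a gene do not tell what the LacZ insertion leaves of its transcript and cannot settle the genotype, and the groups are called null-labelled and control throughout. The tissue label was checked against pancreas factors. Pdx1, which the pancreatic epithelium needs to form, was at 58.6, 69 and 85.9 CPM in controls and 63.9 and 79.4 CPM in null-labelled pools. Ptf1a, needed for acinar development, was at 9.17, 16.2 and 15.9 CPM in the 3 controls against 7.6 and 10.3 CPM in the null-labelled pools. Both were present in all 5 libraries with overlapping groups, as were the hormone gene Gcg and the acinar enzyme gene Cpa1 described further on.

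The 58 called genes had no overlap between the groups, where 12.7 percent of all tested genes had both null-labelled pools above every control and 10.9 percent had both below. At an unadjusted p under 0.05 there were 829 higher genes (4.39 percent) and 411 lower genes (2.17 percent). The median log2 fold change over all tested genes was -0.01. The lower genes ranged from 1.63-fold to 63.5-fold with a median of -1.61 on the log2 scale, and 28 of 33 differed by over 2-fold. The higher genes ranged from 1.74-fold to 9.2-fold with a median of 1.51, and 22 of 25 differed by over 2-fold. The genes nearest the threshold were Tmem200a, Cdo1 and Col7a1 inside it, with adjusted p of 0.0468, 0.0475 and 0.0496. Alx4 and Cnn2 lay just outside, both at 0.0538, and Crispld1 at 0.0565.

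**Figure D1:**
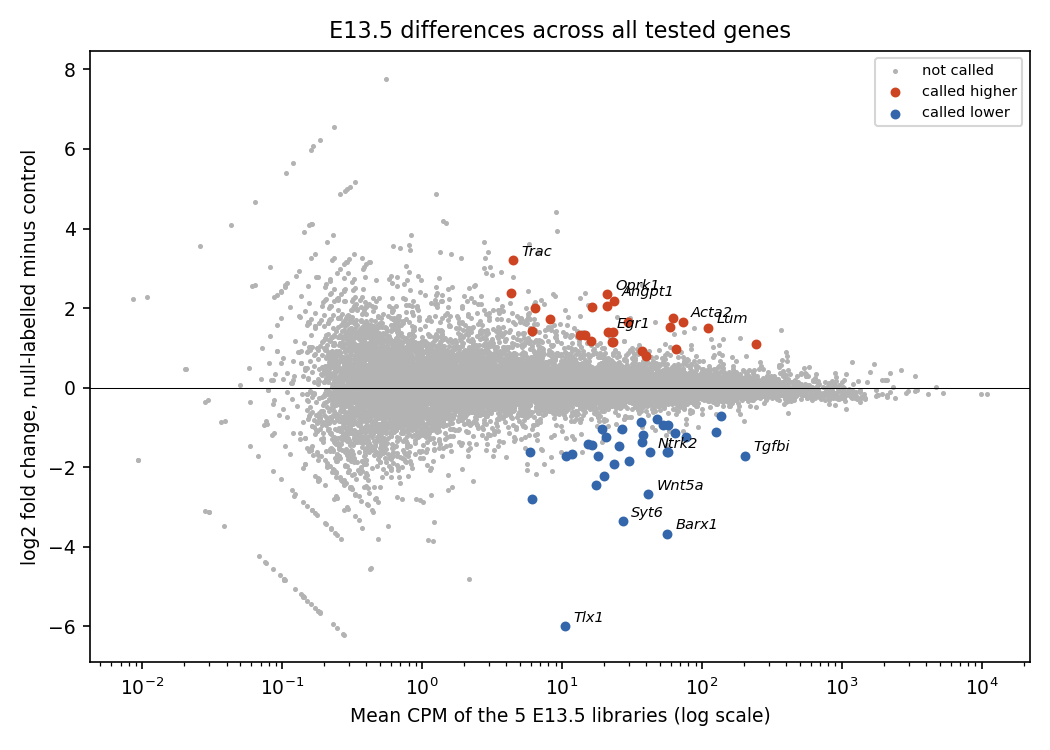
Log2 fold change (null-labelled minus control, y axis) against mean level (CPM over the 5 libraries, x axis, log scale) for the 18898 tested genes at embryonic day 13.5. Coloured points are the 25 genes that rose and the 33 that fell, and the lowest coloured point is Tlx1 at -5.99.

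The number of called genes depended on single libraries. Without control 1 it was 6 higher and 11 lower, without control 2 it was 4 and 10, and without control 3 it was 8 and 17. Without null-labelled pool 1, 1 gene was higher and 6 were lower, and without null-labelled pool 2 the counts were 4 and 8. Leaving out E14.5 libraries, which enter through the spread, gave 85 and 43 without control 1, 20 and 18 without control 2, and 17 and 24 without control 3. It gave 60 and 50 without E14.5 null-labelled pool 1 and 62 and 50 without pool 2. With both E13.5 libraries numbered 1 left out, the genes that passed were Tlx1, Barx1 and Htra1. All 58 genes kept their direction in all 18 alternative fits. The exons of 13 called genes share bases with a gene on the opposite strand: Syt6, Wnt5a, Notum, Ildr2, Tmem200a, Tril, Aspn, Spry1, Kctd12, Ctgf, Edn1, Adgrl3 and Angpt1. Reads of such pairs cannot be told apart where the counting ignored strand, which the sources used here do not state.

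The transcription factors were led by homeobox genes of foregut mesenchyme. Tlx1, a homeobox factor without which mice have no spleen (ENSMUSG00000025215, chromosome 19, 45150680 to 45156943), was at 17.9, 15.4 and 19 CPM in controls and 0.482 and 0.0861 CPM in null-labelled pools. It fell 63.5-fold (log2 fold change -5.99, SE 0.52, edgeR adjusted p = 0.00041), and the read counts behind these levels were 384, 324 and 382 against 9 and 2. Both null-labelled pools were close to 0, and the 3 controls lay near each other. Barx1, a homeobox gene active in the mesenchyme of stomach and spleen (ENSMUSG00000021381, chromosome 13, 48662998 to 48666507), was at 103, 78.1 and 87 CPM in the 3 controls against 8.09 and 5.98 CPM in the null-labelled pools. It fell 12.7-fold (log2 fold change -3.67, SE 0.22, edgeR adjusted p = 1.2e-05), with the groups far apart. Nkx3-2, a homeobox factor needed for spleen and axial skeleton (ENSMUSG00000049691, chromosome 5, 41761483 to 41764501), was at 29.4, 18.7 and 30.3 CPM in controls and 4.66 and 4.99 CPM in null-labelled pools. It fell 5.41-fold (log2 fold change -2.44, SE 0.42, edgeR adjusted p = 0.034), and control 2 was the lowest control yet well above both null-labelled pools. Lhx9, a LIM homeobox factor needed for gonad formation (ENSMUSG00000019230, chromosome 1, 138825186 to 138848577), was at 32.4, 25.7 and 17.7 CPM in the 3 controls against 8.25 and 6.97 CPM in the null-labelled pools, a fall of 3.32-fold (log2 fold change -1.73, SE 0.32, edgeR adjusted p = 0.046). Its controls ran from low in control 3 to high in control 1 without reaching the null-labelled pools. Tshz3, a zinc finger factor of smooth muscle development in the mouse ureter, fell 2.59-fold.

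Of the 8 listed spleen mesenchyme factors, 3 fell, none rose and 5 did not pass, with a list median of -1.42. Nkx2-5, a homeobox factor of heart and spleen, was at 3.12, 3.19 and 4.32 CPM in controls and 0.161 and 0.0861 CPM in null-labelled pools (edgeR adjusted p = 0.088), at a low level in every library. The 17 general mesenchyme factors had no called member and a median of -0.13. Both null-labelled pools were below every control in 6 of the 17, against 10.9 percent of all tested genes, and above every control in 3, against 12.7 percent. The lowest and highest log2 fold changes were those of Prrx1, -1.10 (edgeR adjusted p = 0.058), and Nr2f1, 1.10 (edgeR adjusted p = 0.19). Of the 17 factors, Nr2f2, a nuclear receptor of mesenchyme and veins, was at 270, 207 and 209 CPM in the 3 controls against 218 and 180 CPM in the null-labelled pools, with overlapping groups. Alx4, a homeobox factor of limb and craniofacial mesenchyme that was in no list, was at 13.2, 8.57 and 9.84 CPM in controls and 2.46 and 3.05 CPM in null-labelled pools (log2 fold change -1.93, edgeR adjusted p = 0.054).

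**Figure D2:**
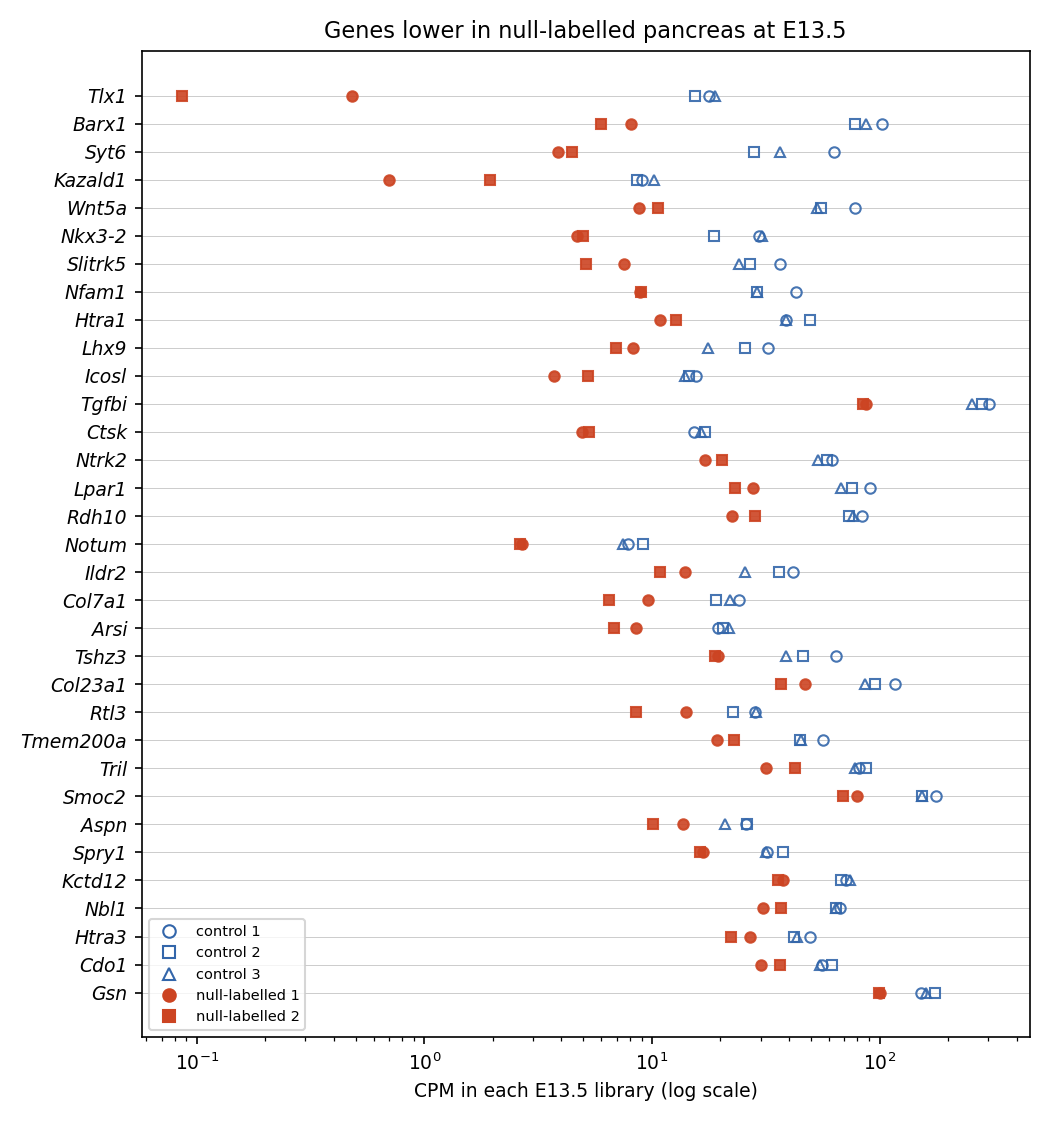
Level in CPM (log axis) of the 33 genes that fell at embryonic day 13.5, with 1 point for each of the 3 control and 2 null-labelled libraries. In every gene shown the 2 null-labelled points lie to the left of all 3 control points, with the widest gap at Tlx1.

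Signals and pathway regulators made up 6 of the lower genes. Wnt5a, a Wnt ligand that mostly signals without beta-catenin and directs tissue elongation (ENSMUSG00000021994, chromosome 14, 28504750 to 28527448), was at 78.4, 55.1 and 53.3 CPM in the 3 controls against 8.78 and 10.6 CPM in the null-labelled pools. It fell 6.42-fold (log2 fold change -2.68, SE 0.26, edgeR adjusted p = 0.00075), with control 1 the highest library. Icosl, a ligand of the T cell co-receptor ICOS (ENSMUSG00000000732, chromosome 10, 78069302 to 78083913), was at 15.6, 14.5 and 14 CPM in controls and 3.7 and 5.21 CPM in null-labelled pools, 3.29-fold lower (log2 fold change -1.72, SE 0.30, edgeR adjusted p = 0.037). Its controls were close together and its null-labelled pools well below them. Notum, which inactivates Wnt proteins by removing their lipid, fell 3.06-fold. Rdh10, which makes the retinaldehyde from which retinoic acid is formed, fell 3.06-fold (edgeR adjusted p = 0.0036). Spry1, a feedback inhibitor of FGF receptor signalling, was at 32.1, 37.5 and 31.6 CPM in the 3 controls against 16.8 and 16.2 CPM in the null-labelled pools and fell 2.05-fold (log2 fold change -1.03, SE 0.15, edgeR adjusted p = 0.016). Nbl1, a secreted BMP antagonist, fell 1.93-fold.

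The pathway lists around these signals had few called members. The 10 FGF ligands had no called gene and a median of -0.27, and Fgf10, a mesenchymal ligand that expands the pancreatic epithelium, was at 7.17, 6.05 and 7.01 CPM in controls and 9.69 and 8.69 CPM in null-labelled pools (edgeR adjusted p = 0.87). Fgf11, an intracellular member of the family, was at 17.4, 15.2 and 14.8 CPM in the 3 controls against 19 and 13.6 CPM in the null-labelled pools. Of the 11 FGF receptors and co-receptors none was called and the median was 0.13. Fgfr3, an FGF9 receptor, was at 21, 22.7 and 23 CPM in controls and 41.4 and 30.2 CPM in null-labelled pools (edgeR adjusted p = 0.29), and Gpc3, a heparan sulphate proteoglycan, overlapped between the groups at 1033, 1107 and 908 CPM in the 3 controls against 1006 and 1054 CPM in the null-labelled pools. Flrt2, a membrane protein that binds FGF receptors, overlapped at 453, 446 and 397 CPM in controls and 445 and 413 CPM in null-labelled pools. Spry1 was the single member called of 13 feedback and target genes, whose median was -0.14, with 9 values below 0 and 4 above. In 4 of the 13 both null-labelled pools were below every control, against 10.9 percent of all tested genes, and in none were both above. Spry4, a second Sprouty inhibitor, was at 19.2, 18.7 and 21.1 CPM in the 3 controls against 11.6 and 13.4 CPM in the null-labelled pools (log2 fold change -0.65, edgeR adjusted p = 0.29), below every control in both pools. Spry2, Dusp4, Dusp5 and Dusp6 overlapped between the groups, with log2 fold changes of -0.14, -0.04, 0.30 and 0.10.

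Wnt5a was the single call among 11 Wnt ligands, with a median of -0.38. Wnt2b, a ligand of foregut and lung mesenchyme, was at 52.1, 49.3 and 37.3 CPM in controls and 25.1 and 21.3 CPM in null-labelled pools (edgeR adjusted p = 0.18), and Wnt4, needed for kidney tubules, at 9.13, 10.2 and 13 CPM in the 3 controls against 19.6 and 17.3 CPM in the null-labelled pools (edgeR adjusted p = 0.26). In both genes the groups did not overlap, in opposite directions. Notum was the only call among 21 Wnt antagonists and targets (median -0.16), where Sfrp2, a secreted Wnt-binding protein, was at 61.4, 64.1 and 57.5 CPM in controls and 116 and 121 CPM in null-labelled pools (edgeR adjusted p = 0.16). Rdh10 was the single call of 14 genes of the retinoic acid pathway, whose median was 0.12. Aldh1a2, the enzyme that oxidises retinaldehyde to retinoic acid, was at 69.3, 56.3 and 49.4 CPM in the 3 controls against 30.2 and 25.6 CPM in the null-labelled pools (log2 fold change -1.06, edgeR adjusted p = 0.068), with both null-labelled pools below the lowest control.

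The remaining signalling lists had no call except in the TGF-beta list. None of 12 Hedgehog genes was called (median -0.14). Smo, the Hedgehog signal transducer, was at 201, 259 and 242 CPM in controls and 182 and 222 CPM in null-labelled pools and overlapped, and Gas1, a Hedgehog co-receptor, was at 219, 208 and 195 CPM in the 3 controls against 194 and 176 CPM in the null-labelled pools. None of 18 BMP genes was called (median 0.32), although 11 had both null-labelled pools above every control against 12.7 percent of all tested genes. Bmper, a secreted BMP regulator, was at 2.1, 1.24 and 1.74 CPM in controls and 4.93 and 8.13 CPM in null-labelled pools (edgeR adjusted p = 0.11). The higher-expressed Id2, a BMP target, was at 117, 135 and 132 CPM in the 3 controls against 140 and 140 CPM in the null-labelled pools, and Bmp7, a BMP ligand, at 96.7, 135 and 156 CPM in controls and 72 and 111 CPM in null-labelled pools. Of 14 Notch genes none was called (median 0.31) and 7 had both null-labelled pools above every control, against the same 12.7 percent. Hey2, a Notch target in vessels, was at 14.3, 12.8 and 10.8 CPM in the 3 controls against 31 and 24.5 CPM in the null-labelled pools (edgeR adjusted p = 0.092), while the receptor genes Notch2 and Notch1 overlapped, with log2 fold changes of 0.06 and 0.42. None of 11 genes of the insulin-like growth factor system was called (median 0.18). Igfbp5, a secreted IGF-binding protein, was at 1152, 865 and 876 CPM in controls and 1624 and 1371 CPM in null-labelled pools (edgeR adjusted p = 0.87), and Igfbp4, of the same family, overlapped at 615, 644 and 699 CPM in the 3 controls against 628 and 672 CPM in the null-labelled pools.

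Matrix proteins and proteases were among both the lower and the higher genes. Kazald1, a secreted protein with a Kazal-type domain (ENSMUSG00000025213, chromosome 19, 45075241 to 45079289), was at 9.03, 8.62 and 10.2 CPM in controls and 0.696 and 1.94 CPM in null-labelled pools. It fell 6.92-fold (log2 fold change -2.79, SE 0.46, edgeR adjusted p = 0.032), with null-labelled pool 1 the lowest library. Htra1, a secreted serine protease (ENSMUSG00000006205, chromosome 7, 130936111 to 130985660), was at 38.7, 49.3 and 39 CPM in the 3 controls against 10.8 and 12.7 CPM in the null-labelled pools, a fall of 3.61-fold (log2 fold change -1.85, SE 0.16, edgeR adjusted p = 0.00041). Control 2 was its highest library and neither null-labelled pool came near the controls. Tgfbi, a matrix protein that is a target of TGF-beta (ENSMUSG00000035493, chromosome 13, 56609523 to 56639562), was at 304, 283 and 255 CPM in controls and 87.6 and 84.5 CPM in null-labelled pools and fell 3.26-fold (log2 fold change -1.71, SE 0.27, edgeR adjusted p = 0.023). Ctsk, a lysosomal protease that cuts collagen (ENSMUSG00000028111, chromosome 3, 95499256 to 95509362), was at 15.3, 17.1 and 16.4 CPM in the 3 controls against 4.93 and 5.29 CPM in the null-labelled pools and fell 3.18-fold (log2 fold change -1.67, SE 0.18, edgeR adjusted p = 0.0019). In Tgfbi and Ctsk the libraries of each group lay close together and the groups far apart. The anchoring fibril collagen Col7a1 fell 2.71-fold, the transmembrane collagen Col23a1 2.38-fold, the calcium-binding matrix protein Smoc2 2.16-fold, the proteoglycan Aspn 2.06-fold and the protease Htra3, related to Htra1, 1.83-fold.

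The matrix genes that rose were led by Thbs4, a thrombospondin of tendon and muscle matrix (ENSMUSG00000021702, chromosome 13, 92751590 to 92794818), at 7.64, 6.86 and 7.75 CPM in controls and 35.3 and 25 CPM in null-labelled pools. It rose 4.06-fold (log2 fold change 2.02, SE 0.36, edgeR adjusted p = 0.044), and its controls were close together. Col4a6, a basement membrane collagen chain (ENSMUSG00000031273, chromosome X, 141165403 to 141474076), was at 38.6, 29.8 and 27 CPM in the 3 controls against 124 and 90.4 CPM in the null-labelled pools and rose 3.38-fold (log2 fold change 1.76, SE 0.27, edgeR adjusted p = 0.023). Lum, a small leucine-rich proteoglycan that organises collagen fibrils (ENSMUSG00000036446, chromosome 10, 97565128 to 97572703), was at 53.9, 72.4 and 63.6 CPM in controls and 208 and 153 CPM in null-labelled pools and rose 2.85-fold (log2 fold change 1.51, SE 0.18, edgeR adjusted p = 0.0031). In all 3 genes null-labelled pool 1 was above pool 2 and both were above the controls. Prss35, a secreted protein of the serine protease family (ENSMUSG00000033491, chromosome 9, 86743649 to 86758443), was at 14.8, 14.3 and 12.4 CPM in the 3 controls against 42.6 and 31 CPM in the null-labelled pools and rose 2.66-fold (log2 fold change 1.41, SE 0.20, edgeR adjusted p = 0.012). Dcn, a small leucine-rich proteoglycan that binds TGF-beta, was at 169, 183 and 148 CPM in controls and 402 and 316 CPM in null-labelled pools and rose 2.15-fold (edgeR adjusted p = 0.032). The matrix signalling protein Ctgf rose 2.52-fold, the fibulin family member Efemp1 2.26-fold and Itih2, a hyaluronan-binding serum protein, 2.51-fold.

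Across the lists, 2 of 32 collagens fell (Col7a1, Col23a1) and 1 rose (Col4a6), with a median of 0.35. The summed level of the collagen list was 8293 to 9137 CPM in controls and 10654 and 13267 CPM in null-labelled pools 2 and 1. Most of this sum was Col1a1, Col1a2 and Col3a1, none of them called. Of 10 small leucine-rich proteoglycans 2 rose and 1 fell (median 0.19), of 29 laminins and integrins 1 rose (Itga2b, median 0.21), and of 21 matrix proteases and inhibitors Htra1 and Htra3 fell (median 0.22). In the TGF-beta list Tgfbi fell and Ctgf rose, with a median of 0.55 over 13 genes. Of all tested genes, 12.7 percent had both null-labelled pools above every control and 10.9 percent had both below. Both pools were above in 15 and below in 4 of the collagens, and 4 and 2 of the proteoglycans. The counts were 11 and 2 for laminins and integrins, 8 and 6 for proteases and inhibitors, and 7 and 1 for the TGF-beta list. Tgfb2, a TGF-beta ligand, was at 25.2, 26.3 and 23 CPM in the 3 controls against 55.2 and 48.1 CPM in the null-labelled pools (log2 fold change 1.06, edgeR adjusted p = 0.18), above every control in both pools.

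**Figure D3:**
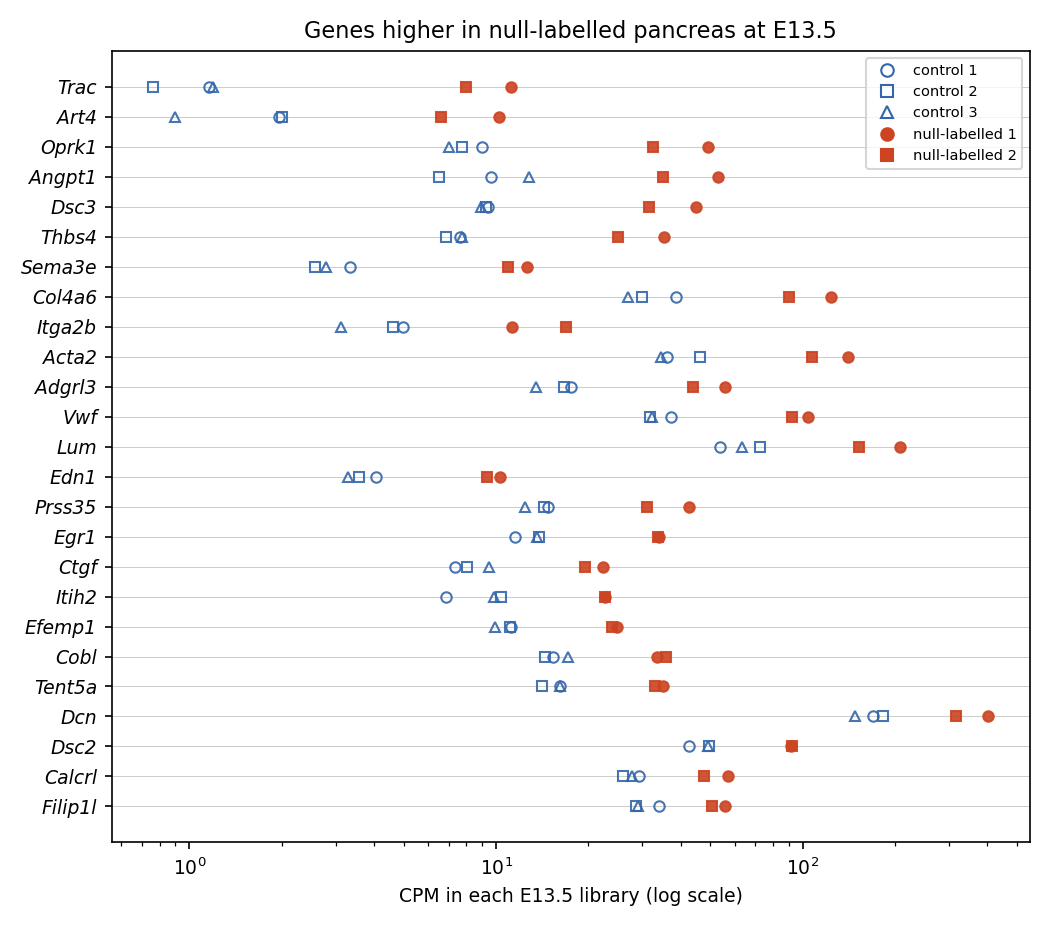
Level in CPM (log axis) of the 25 genes that rose at embryonic day 13.5, with 1 point for each of the 3 control and 2 null-labelled libraries. In every gene shown both null-labelled points lie to the right of all control points, and Trac has the largest fold.

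Receptors and membrane proteins accounted for 9 lower genes. Syt6, a synaptotagmin that takes part in vesicle fusion (ENSMUSG00000027849, chromosome 3, 103575231 to 103645569), was at 62.8, 28.2 and 36.7 CPM in controls and 3.86 and 4.47 CPM in null-labelled pools. It fell 10.2-fold (log2 fold change -3.35, SE 0.36, edgeR adjusted p = 0.0015), with controls that ranged widely, control 1 the highest. Slitrk5, a membrane protein of synapse formation (ENSMUSG00000033214, chromosome 14, 111675097 to 111683141), was at 36.5, 26.9 and 24.1 CPM in the 3 controls against 7.55 and 5.12 CPM in the null-labelled pools and fell 4.61-fold (log2 fold change -2.21, SE 0.29, edgeR adjusted p = 0.0073). Nfam1, an immune receptor with a tyrosine activation motif (ENSMUSG00000058099, chromosome 15, 82992973 to 83033306), was at 42.8, 29 and 28.9 CPM in controls and 8.89 and 8.99 CPM in null-labelled pools and fell 3.75-fold (log2 fold change -1.91, SE 0.25, edgeR adjusted p = 0.0073). The null-labelled pools of these genes lay well below every control. Ntrk2, the receptor for brain-derived neurotrophic factor (ENSMUSG00000055254, chromosome 13, 58806569 to 59133970), was at 62, 59 and 53.5 CPM in the 3 controls against 17.1 and 20.4 CPM in the null-labelled pools and fell 3.09-fold (log2 fold change -1.63, SE 0.15, edgeR adjusted p = 0.00073). Lpar1, a receptor for lysophosphatidic acid (ENSMUSG00000038668, chromosome 4, 58435255 to 58553898), was at 90.7, 75.5 and 67.9 CPM in controls and 27.9 and 23.1 CPM in null-labelled pools and fell 3.06-fold (log2 fold change -1.62, SE 0.23, edgeR adjusted p = 0.011). The smaller falls were those of Ildr2, 2.78-fold, Tmem200a, 2.29-fold, the Toll-like receptor adaptor Tril, 2.21-fold, and the GABA-B receptor subunit Kctd12, 1.93-fold. Genes outside these groups were the sulfatase Arsi, 2.7-fold lower, the retrotransposon-derived Rtl3, 2.36-fold lower, the cysteine dioxygenase Cdo1, 1.73-fold lower, and the actin-severing Gsn, 1.63-fold lower.

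Genes known from blood vessels and blood cells made up 7 of the 25 higher genes. Angpt1, the ligand of the endothelial receptor TIE2 (ENSMUSG00000022309, chromosome 15, 42424723 to 42676977), was at 9.64, 6.53 and 12.8 CPM in the 3 controls against 53.1 and 35.1 CPM in the null-labelled pools. It rose 4.56-fold (log2 fold change 2.19, SE 0.26, edgeR adjusted p = 0.0036), with null-labelled pool 1 the highest library. Vwf, the von Willebrand factor of endothelium and platelets (ENSMUSG00000001930, chromosome 6, 125546774 to 125686679), was at 37.3, 31.8 and 32.3 CPM in controls and 104 and 92.2 CPM in null-labelled pools and rose 2.9-fold (log2 fold change 1.53, SE 0.27, edgeR adjusted p = 0.04). Edn1, the vasoconstrictor endothelin (ENSMUSG00000021367, chromosome 13, 42301476 to 42307990), was at 4.05, 3.57 and 3.28 CPM in the 3 controls against 10.3 and 9.34 CPM in the null-labelled pools and rose 2.69-fold (log2 fold change 1.43, SE 0.24, edgeR adjusted p = 0.032). In both genes the pools of a group were close together. Sema3e, a guidance ligand for vessels through plexin D1 (ENSMUSG00000063531, chromosome 5, 14025276 to 14256689), was at 3.35, 2.57 and 2.78 CPM in controls and 12.6 and 10.9 CPM in null-labelled pools and rose 4.04-fold (log2 fold change 2.01, SE 0.26, edgeR adjusted p = 0.0069). Itga2b, the platelet integrin subunit (ENSMUSG00000034664, chromosome 11, 102453297 to 102470122), was at 4.98, 4.62 and 3.13 CPM in the 3 controls against 11.3 and 16.9 CPM in the null-labelled pools and rose 3.32-fold (log2 fold change 1.73, SE 0.28, edgeR adjusted p = 0.027). Art4, the carrier of the Dombrock blood group in humans (ENSMUSG00000030217, chromosome 6, 136848451 to 136857733), was at 1.96, 2 and 0.895 CPM in controls and 10.2 and 6.63 CPM in null-labelled pools and rose 5.16-fold (log2 fold change 2.37, SE 0.43, edgeR adjusted p = 0.046), from few reads in controls. Calcrl, the receptor component for adrenomedullin, was at 29.2, 26 and 27.7 CPM in the 3 controls against 57 and 47.6 CPM in the null-labelled pools and rose 1.89-fold.

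Lists of vessel and blood cell genes had few calls beside these. Angpt1 was the single call of 12 angiopoietin and VEGF genes (median 0.24), all 12 with a log2 fold change above 0. Tie1, an endothelial receptor of the TIE family, was at 49.7, 53.4 and 54.8 CPM in controls and 78.6 and 78.5 CPM in null-labelled pools (edgeR adjusted p = 0.071), and Kdr, the main VEGF receptor, at 97.9, 102 and 82.8 CPM in the 3 controls against 147 and 129 CPM in the null-labelled pools (edgeR adjusted p = 0.19). None of 15 endothelial genes was called (median 0.25), and their summed level was 548 to 604 CPM in controls and 687 and 697 CPM in the null-labelled pools. Of them, Cdh5, the endothelial cadherin, was at 110, 119 and 105 CPM in controls and 163 and 153 CPM in null-labelled pools (edgeR adjusted p = 0.1), and Pecam1, an adhesion protein of endothelium, overlapped at 95.5, 108 and 85.5 CPM in the 3 controls against 123 and 105 CPM in the null-labelled pools. Of 30 semaphorin, plexin and neuropilin genes Sema3e was the single call (median 0.16). Both null-labelled pools were above every control in 11 of the 30, against 12.7 percent of all tested genes. They were below every control in 2, against 10.9 percent. Of 12 megakaryocyte and platelet genes tested, Itga2b and Vwf rose and the median was 0.91. Their summed level was 106 to 136 CPM in controls and 213 to 227 CPM in null-labelled pools, and the platelet glycoprotein gene Gp9 was at 0.14, 0.238 and 0.199 CPM in controls and 0.91 and 2.37 CPM in null-labelled pools (edgeR adjusted p = 0.13). None of 13 erythroid genes was called (median 0.62), with a summed level of 1470 to 2376 CPM in controls and 2155 and 2935 CPM in null-labelled pools. All 13 erythroid values were above 0, and 8 of 13 genes had both null-labelled pools above every control, against 12.7 percent of all tested genes. The platelet gene Gp1bb had no read in any library. The globin genes Hbb-y and Hba-a1 overlapped between the groups, with log2 fold changes of 0.27 and 0.36. Whether the blood and vessel content of the pools had a part in the rises was not tested.

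Contractile and cytoskeletal genes included 3 that rose. Acta2, the smooth muscle actin (ENSMUSG00000035783, chromosome 19, 34241090 to 34255590), was at 36.1, 46.2 and 34.5 CPM in the 3 controls against 140 and 107 CPM in the null-labelled pools. It rose 3.17-fold (log2 fold change 1.66, SE 0.26, edgeR adjusted p = 0.023), with null-labelled pool 1 above pool 2. Filip1l, a filamin-interacting protein family member, rose 1.74-fold, and Cobl, an actin nucleator, rose 2.22-fold. Acta2 was the single call of 13 smooth muscle contractile genes, which had a median of 0.72, and 8 of them had both null-labelled pools above every control, against 12.7 percent of all tested genes. Actg2, the enteric smooth muscle actin, was at 5.03, 4.38 and 5.12 CPM in controls and 19.4 and 18.3 CPM in null-labelled pools (edgeR adjusted p = 0.089), and Des, the intermediate filament desmin, at 78.3, 84.4 and 74.8 CPM in the 3 controls against 56 and 57.6 CPM in the null-labelled pools (edgeR adjusted p = 0.43). The groups of these 2 genes did not overlap and differed in opposite directions. None of 13 pericyte and PDGF genes was called (median 0.02), and the receptor genes Pdgfra and Pdgfrb overlapped, with log2 fold changes of -0.10 and 0.02. Skeletal muscle genes, none of 14 called (median 1.03), summed to 28.7 to 42.4 CPM in controls and to 103 and 38.4 CPM in null-labelled pools 1 and 2. Of the 14, 12 had a log2 fold change above 0 and 2 below. Both null-labelled pools were above every control in 5, against 12.7 percent of all tested genes, and below every control in none. The myosin genes Myh3 and Myh8 had log2 fold changes of 2.09 and -0.94, and the fast troponin gene Tnnc2 had no read in any library. The part of skeletal muscle RNA in the contractile rises was not tested.

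The remaining higher genes were adhesion molecules, receptors and regulators. Dsc3, a desmosomal cadherin of stratified epithelium (ENSMUSG00000059898, chromosome 18, 19960930 to 20002351), was at 9.41, 9.29 and 8.9 CPM in controls and 45 and 31.5 CPM in null-labelled pools and rose 4.15-fold (log2 fold change 2.05, SE 0.33, edgeR adjusted p = 0.026). Dsc2, the desmosomal cadherin of simple epithelium and heart, was at 42.5, 49.3 and 49.1 CPM in the 3 controls against 91.6 and 92.3 CPM in the null-labelled pools and rose 1.96-fold (edgeR adjusted p = 0.0053). For both, the controls were close together and both null-labelled pools stood above them. Oprk1, the kappa opioid receptor (ENSMUSG00000025905, chromosome 1, 5588466 to 5606131), was at 8.99, 7.76 and 7.01 CPM in controls and 49.2 and 32.5 CPM in null-labelled pools and rose 5.15-fold (log2 fold change 2.36, SE 0.42, edgeR adjusted p = 0.04). Adgrl3, a latrophilin adhesion receptor (ENSMUSG00000037605, chromosome 5, 81020138 to 81825133), was at 17.5, 16.7 and 13.5 CPM in the 3 controls against 55.7 and 44 CPM in the null-labelled pools and rose 3.14-fold (log2 fold change 1.65, SE 0.28, edgeR adjusted p = 0.032). Egr1, an immediate early transcription factor induced by growth factor signalling, was at 11.5, 13.8 and 13.6 CPM in controls and 34 and 33.7 CPM in null-labelled pools and rose 2.62-fold (log2 fold change 1.39, SE 0.14, edgeR adjusted p = 0.0012). It was the single call of 18 immediate early and heat shock genes, whose median was 0.04. Tent5a, a poly(A) polymerase, rose 2.2-fold.

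Trac, the constant gene of the T cell receptor alpha chain (ENSMUSG00000076928, chromosome 14, 54220521 to 54224206), had the largest fold of the higher genes. It was at 1.16, 0.762 and 1.19 CPM in the 3 controls against 11.2 and 8 CPM in the null-labelled pools and rose 9.2-fold (log2 fold change 3.20, SE 0.50, edgeR adjusted p = 0.023), with both null-labelled pools far above the controls. The T cell list had 8 of 13 genes tested and a median of -0.87. The list members Cd3d and Cd8a had no read in any of the 5 libraries. Zap70, a T cell kinase, was at 0.745, 0.714 and 0.646 CPM in controls and 0.0536 and 0 CPM in null-labelled pools. The summed level of the list, which includes Trac, was 12.8 to 18.6 CPM in controls and 22.7 and 19.6 CPM in null-labelled pools. Trac lies on chromosome 14, 3.85 Mb from Fgf9. Of the 58 called genes, 4 were on chromosome 14 (6.9 percent, against 3.41 percent of tested genes), and Wnt5a, Kctd12 and Slitrk5 lay 29.5, 44.9 and 53.6 Mb from Fgf9.

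Genes of the pancreatic epithelium gave no call. The 17 progenitor and trunk factors had a median of 0.16, and Sox9, a factor of progenitors and ducts, was at 131, 162 and 251 CPM in the 3 controls against 155 and 252 CPM in the null-labelled pools. Nkx6-1, a factor of trunk cells and later beta cells, was at 119, 154 and 228 CPM in controls and 150 and 260 CPM in null-labelled pools. In both, control 1 and null-labelled pool 1 were the lowest libraries. The 26 acinar genes had a median of -0.40, with 21 log2 fold changes below 0 and 5 above. Both null-labelled pools were below every control in 5 of the 26, against 10.9 percent of all tested genes. They were above every control in 1, against 12.7 percent. The summed level of the acinar list was 3668, 6026 and 6243 CPM in controls and 3914 and 4663 CPM in null-labelled pools. Cpa1, carboxypeptidase of acinar and tip cells, was at 861, 1394 and 1435 CPM in the 3 controls against 1017 and 1304 CPM in the null-labelled pools, and Pnliprp1, a lipase-related enzyme, at 807, 1427 and 1424 CPM in controls and 769 and 898 CPM in null-labelled pools. The groups overlapped in both genes, and control 1 and null-labelled pool 1 were the lowest libraries. These are the libraries that stood apart on the first principal component, and their part in the acinar values was not tested. The 15 duct genes had a median of -0.07, with Spp1, a secreted phosphoprotein, at 787, 872 and 813 CPM in the 3 controls against 749 and 588 CPM in the null-labelled pools and the epithelial cadherin gene Cdh1 at 414, 604 and 614 CPM in controls and 450 and 668 CPM in null-labelled pools.

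Most endocrine genes overlapped between the groups. Both null-labelled pools were above every control in 2 of 15 endocrine progenitor regulators and 2 of 24 hormone and granule genes. Of all tested genes 12.7 percent were so placed, and no member of either list had both pools below every control. None of 15 endocrine progenitor regulators was called (median 0.13), and Neurog3, the factor that starts endocrine differentiation, was at 62.5, 122 and 109 CPM in the 3 controls against 84 and 114 CPM in the null-labelled pools. Sox4, a SOX factor of endocrine progenitors, was at 243, 225 and 206 CPM in controls and 209 and 213 CPM in null-labelled pools. Of 24 hormone and granule genes none was called (median 0.16). The glucagon gene Gcg was at 622, 810 and 864 CPM in the 3 controls against 559 and 767 CPM in the null-labelled pools and the insulin gene Ins2 at 11, 21 and 17.9 CPM in controls and 12.4 and 13.1 CPM in null-labelled pools. Ttr, a thyroid hormone carrier made by islet cells and liver, was at 251, 287 and 299 CPM in the 3 controls against 266 and 286 CPM in the null-labelled pools. For cell cycle genes, none of 26 was called and the median was -0.22, with 25 of 26 values below 0. The median over all tested genes was -0.01. Both null-labelled pools were below every control in 9 of the 26, against 10.9 percent of all tested genes, and above every control in none. The topoisomerase gene Top2a was at 704, 801 and 695 CPM in controls and 632 and 618 CPM in null-labelled pools, below every control, and the proliferation marker Mki67 overlapped at 677, 658 and 469 CPM in the 3 controls against 624 and 530 CPM in the null-labelled pools. None of 19 hypoxia and glycolysis genes (median 0.14) and none of 10 mitochondrial transcripts (median -0.12) was called. The glycolytic genes Gapdh and Pkm had log2 fold changes of -0.22 and -0.04, and the mitochondrial genes mt-Co1 and mt-Cytb had -0.15 and -0.14.

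Markers of neighbouring tissues were read in each library. None of 13 liver genes was called, but the median was 1.37, 9 had both null-labelled pools above every control (12.7 percent of all tested genes did), and the summed level was 334 to 460 CPM in controls and 559 and 623 CPM in null-labelled pools 2 and 1. Ttr, which islet cells also make, was most of that sum in controls and overlapped between the groups. It was at 251, 287 and 299 CPM in controls and 266 and 286 CPM in null-labelled pools 1 and 2. Alb, serum albumin, was at 8.57, 23 and 6.21 CPM in controls and 95.6 and 53.7 CPM in null-labelled pools (edgeR adjusted p = 0.16), Apob, of lipoproteins, at 0.745, 2.29 and 1.14 CPM in the 3 controls against 16.9 and 12.6 CPM in the null-labelled pools (edgeR adjusted p = 0.14), and Afp, fetal alpha-fetoprotein, at 52.5, 117 and 58.7 CPM in controls and 190 and 163 CPM in null-labelled pools. Among the higher genes Itih2 is also made by liver, and the part of liver RNA in its rise was not tested. None of 18 neural crest, glial and neuronal genes was called (median 0.88), 11 had both null-labelled pools above every control, against the same 12.7 percent, and the summed level was 484 to 555 CPM in controls and 621 and 861 CPM in null-labelled pools 1 and 2. Stmn2, a neuronal growth protein, was at 35.1, 41.4 and 40.1 CPM in the 3 controls against 78.7 and 119 CPM in the null-labelled pools (edgeR adjusted p = 0.44), and Prph, a neuronal filament, at 5.82, 9.1 and 5.27 CPM in controls and 19.1 and 37.7 CPM in null-labelled pools (edgeR adjusted p = 0.19). Hand2, a factor of sympathetic neurons and mesenchyme, and Erbb3, a glial receptor, overlapped, with log2 fold changes of -0.06 and 0.36. The part of neural RNA in the rise of Oprk1 and Adgrl3 was not tested.

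None of 14 mesothelial genes was called (median -0.26), and 10 of 14 had a log2 fold change below 0. Both null-labelled pools were below every control in 4 of them, against 10.9 percent of all tested genes, and above every control in 3, against 12.7 percent. The summed level, of which Igfbp5 made up most, was 1250 to 1707 CPM in controls and 1730 and 2035 CPM in null-labelled pools. Lrrn4, a membrane protein of mesothelium, was at 59.4, 59.4 and 46.1 CPM in the 3 controls against 28.9 and 27 CPM in the null-labelled pools (edgeR adjusted p = 0.089), and Aldh1a2, also a member, was likewise below every control as given above. Upk3b, a mesothelial uroplakin, was at 90.3, 89.9 and 59.1 CPM in controls and 125 and 106 CPM in null-labelled pools (edgeR adjusted p = 0.76). None of 14 macrophage genes was called (median 0.25). Of these, 11 had a value above 0 and 6 had both null-labelled pools above every control, against 12.7 percent of all tested genes. Mrc1 and Csf1r, macrophage receptor genes with the highest mean levels of the list, overlapped, with log2 fold changes of -0.16 and 0.18. Gut epithelial genes (none of 8 tested called, median 0.21) summed to 11.6 to 15.1 CPM in controls and 15 and 16.2 CPM in null-labelled pools. Of these the gut brush border gene Vil1 overlapped at 6.89, 10.2 and 8.9 CPM in the 3 controls against 8.09 and 9.94 CPM in the null-labelled pools, while Gkn1, Tff1 and Muc5ac, of stomach mucosa, had no read. Sox2, a factor of stomach and oesophagus, was at 0.978, 0.524 and 0.646 CPM in controls and 2.04 and 3.05 CPM in null-labelled pools (edgeR adjusted p = 0.74). Gonad and adrenal genes (none of 6 called, median 0.19) included Gata4 and Inha, which overlapped, with log2 fold changes of 0.22 and 0.46. The fall of Lhx9, a gonad factor, was measured beside a gonad and adrenal sum of 82.5 to 103 CPM in controls and 96.7 and 121 CPM in null-labelled pools. Most of that sum was Gata4, at 57.8, 85.6 and 84.2 CPM in controls and 74.6 and 102 CPM in null-labelled pools. Gata4 is also in the list of pancreatic progenitor and trunk factors, so the sum does not single out gonad or adrenal tissue.

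**Figure D4:**
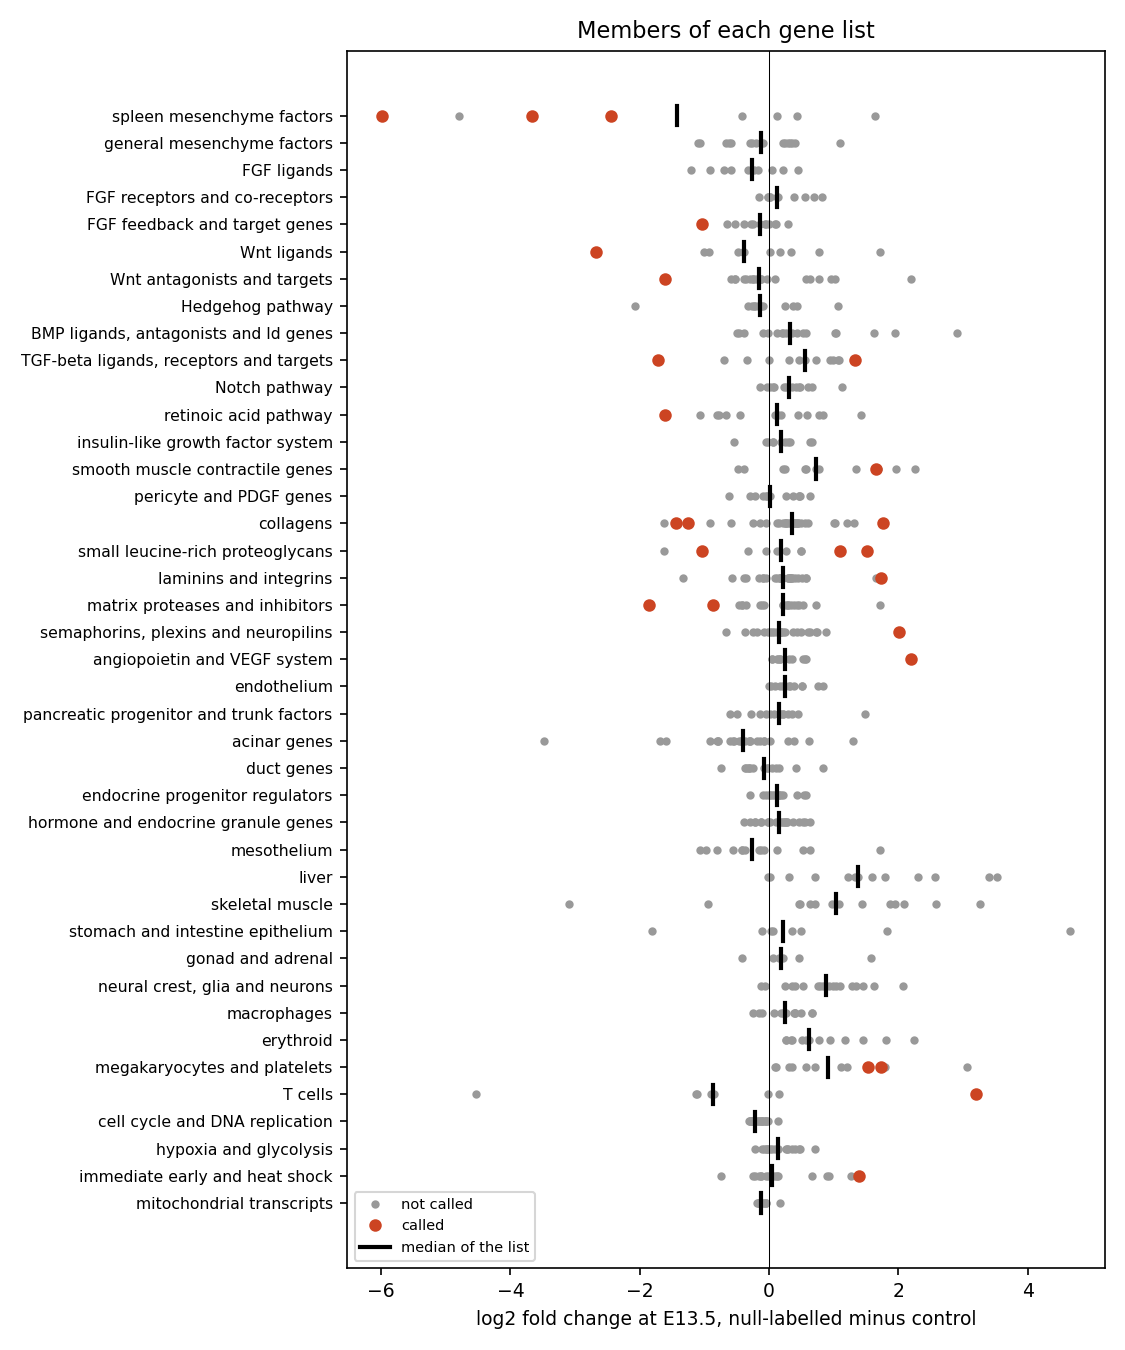
Log2 fold change (null-labelled minus control, x axis) of the tested members of each gene list at embryonic day 13.5, with 1 point per gene and the list median marked. The spleen mesenchyme list has a median of -1.42 and the liver list of 1.37, while the median over all 18898 tested genes is -0.01.

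The pools at E14.5 shared no library with those at E13.5, although both stages entered 1 fit. Of the 33 genes lower at E13.5, 30 had a log2 fold change below 0 at E14.5, where 52.7 percent of all tested genes did, and 22 had both null-labelled pools below every control, against 11.8 percent. The test at E14.5, which called 0.111 percent of genes, passed Tlx1, Barx1, Syt6, Lhx9, Ntrk2 and Col7a1 among them. Of the 25 higher genes, all 25 were above 0 at E14.5, against 47.3 percent, and 23 had both null-labelled pools above every control, against 11.9 percent. Those that also passed at E14.5 were Calcrl, Dcn, Prss35, Edn1, Lum, Acta2, Col4a6, Oprk1 and Trac. The median of the lower genes was -1.61 at E13.5 and -0.64 at E14.5, and that of the higher genes 1.51 and 1.26. The genes were picked for their values at E13.5, which by itself favours smaller values at the other stage.

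Values of single genes are given side by side for the 2 stages. Wnt5a had a log2 fold change of -2.68 at E13.5 and -1.41 at E14.5 (edgeR adjusted p = 0.055), and Tgfbi had -1.71 and -0.52 (edgeR adjusted p = 0.64). Acta2 had 1.66 and 1.99 (edgeR adjusted p = 0.015). Htra3, Rtl3 and Smoc2 were the lower genes with a value above 0 at E14.5, at 0.41, 0.18 and 0.04. The difference of the null effect between the stages, tested as an interaction, passed for no gene by edgeR (0 of 18898). At an unadjusted p under 0.05 there were 454 genes (2.4 percent), limma-voom called 0 and DESeq2 called 4. Htra3 came first in edgeR's quasi-likelihood test of the interaction, with a difference of -1.28 on the log2 scale (unadjusted p = 5.7e-05, adjusted p = 1).

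**Figure D5:**
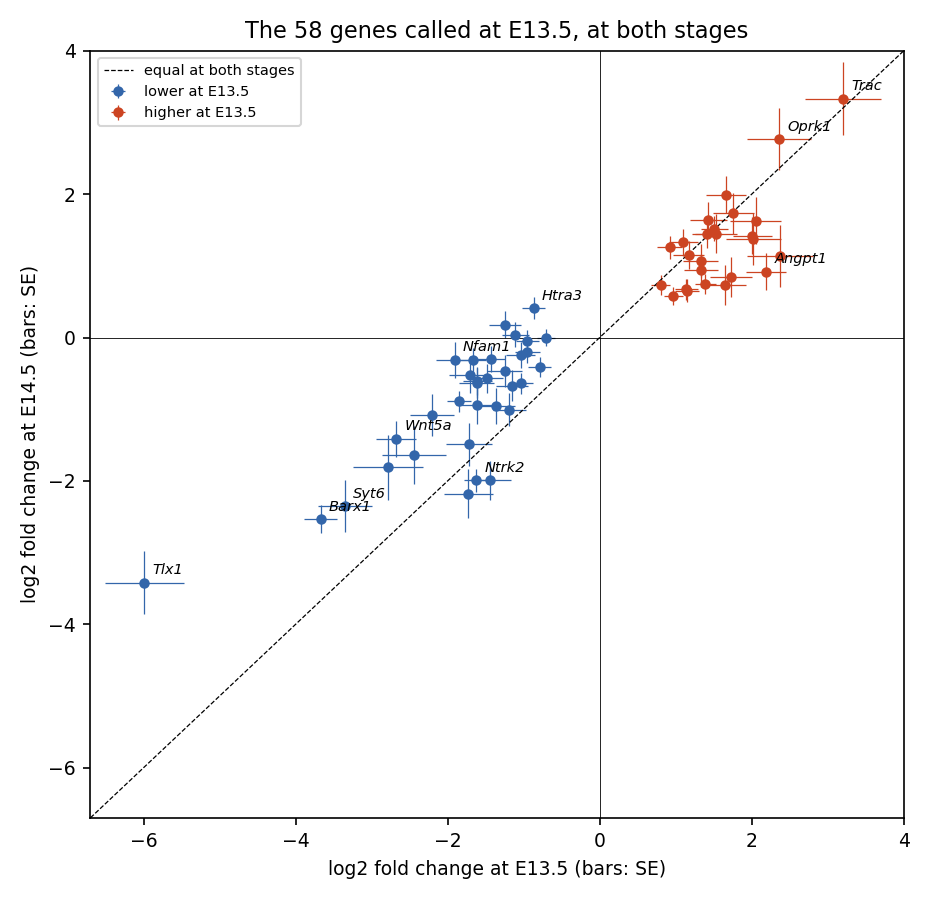
Log2 fold change (null-labelled minus control) at embryonic day 13.5 (x axis) and 14.5 (y axis) of the 58 genes called at the earlier stage, with bars for the SE and a dashed line where both stages are equal. Of the 33 lower genes, 30 are also below 0 on the y axis, and all 25 higher genes are above 0 on it.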

How the data were processed

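The authors deposited a table of raw counts, with 54532 genes and 10 libraries. Per the submitters' processing notes, TopHat, HTSeq, DESeq2 and the mm10 build were used. Their versions and roles and the strand setting were not stated there. Groups came from the stage and genotype labels, and no column was left unmapped.

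Counts were tested with edgeR 4.0.16 (R 4.3.3) using quasi-likelihood F tests. The model had TMM factors, 4 group means and a shared spread over 10 libraries (6 residual degrees of freedom). Filtering by expression within groups left 18898 genes with 99.91 percent of the counts. Benjamini-Hochberg adjustment ran over all of these, and 0.05 was the threshold. An SE was obtained as the absolute log2 fold change over the root of F. Total counts of 18004724 to 22798257 per E13.5 library set the precision, and replicates differed far beyond counting noise (chi-square per gene 14.4 to 31.3 at E13.5), so none was a duplicate. Intervals are not given because error is read from the pools.

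In each direction, the 15 called genes with the largest fold were given in every library, among those with groups apart and an average of 1 CPM or more. Of each list every called gene, or else up to 2 genes with the highest mean level, was named. The members and the 41 lists were chosen with earlier results of these data known. Other uncalled genes were named, and called genes grouped by role, after their values were seen. Alternatives were DESeq2 1.42.0, limma-voom 3.58.1, other normalizations, no filter, E13.5 libraries alone, a block for replicate number, single libraries left out in turn and, chosen after seeing the data, both E13.5 libraries numbered 1 left out. The E13.5 comparison was tested on simulated data with 17063 genes. Of 100 genes set to differ 2-fold, 51 were called, and of 100 set to differ 4-fold, 77 were called, beside 9 unchanged genes. GENCODE M21 (GRCm38, the build also called mm10) gave the coordinates.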

Additional observations from a re-analysis of the deposited data

How the results depend on the processing

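The counts of called genes at E13.5, 25 higher and 33 lower, changed with several settings, and the cause was not tested except where the setting itself removes samples or genes. DESeq2 called 157 higher and 97 lower genes and 4 interactions. No filter on low counts gave 337, 122 and 51, and the E13.5 libraries alone gave 140 and 57. Upper-quartile normalization called 18 lower genes. Leaving out 1 library gave 1 to 85 higher and 6 to 50 lower genes, and leaving out both E13.5 libraries numbered 1 gave 0 and 3. In that edgeR fit 679 genes were higher and 499 lower at an unadjusted p under 0.05, and no other tool was run on it. The direction of each of the 58 called genes was the same in all 18 alternatives.

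Same-numbered pools were not taken as pairs, since E13.5 has 2 of them and the labels name no shared litter. Across genes, deviations from the group means correlated at 0.36 for control 1 with null-labelled pool 1. They correlated at 0.14 for the pools numbered 2, and null-labelled pool 2 correlated at 0.25 with control 3. Deviations of 2 pools from their own mean are equal and opposite. The values for null-labelled pool 2 are therefore those of pool 1 with the sign turned, and they are not separate evidence on pairing. With the replicate number as a block, 391 genes were higher, 175 lower and 13 differed between stages, with 2 residual degrees of freedom. The block turned the sign of Fgf11 (-0.02), Gpc3 (-0.05), Notch2 (-0.02), Igfbp4 (0.05), Cpa1 (0.07), Ttr (0.04) and Pkm (0.01).

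Among the uncalled genes named, 24 changed sign in some setting, and all had an adjusted p of at least 0.98 by edgeR. Over the fits without 1 library their log2 fold changes ran from -0.20 to -0.05 for Tbx2, -0.21 to 0.26 for Fgf11, -0.05 to 0.07 for Gpc3, -0.07 to 0.04 for Flrt2, -0.04 to 0.27 for Notch2 and -0.06 to 0.05 for Igfbp4. They ran from -0.31 to 0.09 for Pdgfra, -0.08 to 0.09 for Pdgfrb, -0.16 to 0.17 for Pdx1, -0.24 to 0.48 for Sox9, -0.15 to 0.65 for Nkx6-1, -0.28 to 0.09 for Cpa1 and -0.28 to 0.30 for Cdh1. For Neurog3 the range was -0.23 to 0.22, for Gcg -0.45 to 0.01, for Ttr -0.09 to 0.04, for Vil1 -0.10 to 0.20, for Gata4 -0.03 to 0.43 and for Hand2 -0.14 to 0.02. For Mrc1 it was -0.50 to 0.12, for Hbb-y -0.20 to 0.63, for Mki67 -0.21 to 0.05, for Pkm -0.17 to 0.08 and for mt-Cytb -0.36 to 0.05. Upper-quartile normalization gave 0.00 for Flrt2 and 0.01 for Igfbp4. Without both libraries numbered 1, Tbx2 was at 0.00, Fgf11 at -0.14, Igfbp4 at 0.01, Neurog3 at -0.02 and Hand2 at 0.09. With 2 null-labelled pools, differences under 2-fold were often not detectable at this spread, and 51 of 100 simulated 2-fold changes were recovered.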

Other observations

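Beyond the called genes, 61 tested genes were at least 4-fold higher and 15 at least 4-fold lower in the null-labelled pools, yet did not pass the test. Their groups were apart and they averaged 1 CPM or more. They were looked at after their values were seen, and they have no test beside the one that they missed. Grin2b, a glutamate receptor subunit, was at 0.326, 0.238 and 0 CPM in the 3 controls against 4.87 and 2.02 CPM in the null-labelled pools (edgeR adjusted p = 0.17). Gdf2, a BMP ligand made by liver, was at 0.512, 0 and 0 CPM in controls and 4.98 and 1.55 CPM in null-labelled pools (edgeR adjusted p = 0.29). Hand1, a helix-loop-helix factor of heart and sympathetic neurons, was at 2.05, 0.143 and 1.89 CPM in the 3 controls against 16.1 and 25.9 CPM in the null-labelled pools (edgeR adjusted p = 0.19). Both null-labelled pools were above every control in these genes. Dbh, the enzyme that makes noradrenaline, was at 1.82, 0.762 and 0.348 CPM in controls and 5.41 and 36.6 CPM in null-labelled pools (edgeR adjusted p = 0.61), and its level rested mainly on null-labelled pool 2. Ctxn3, a small membrane protein, was at 0.186, 0 and 0.0994 CPM in the 3 controls against 3.59 and 2.41 CPM in the null-labelled pools (edgeR adjusted p = 0.12).

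On the lower side, Cma1, a mast cell chymase, was at 1.72, 2.33 and 1.24 CPM in controls and 0.107 and 0.129 CPM in null-labelled pools (edgeR adjusted p = 0.095). Kcnf1, a potassium channel subunit, was at 2.19, 1.71 and 1.79 CPM in the 3 controls against 0.268 and 0 CPM in the null-labelled pools (edgeR adjusted p = 0.12). Emx2, a homeobox factor of the urogenital tract and forebrain, was at 1.77, 2.14 and 0.745 CPM in controls and 0.0536 and 0.344 CPM in null-labelled pools (edgeR adjusted p = 0.34). The null-labelled levels of these genes rest on few reads.

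The null-labelled pools differed from each other within the called genes. Null-labelled pool 1 was above pool 2 in 21 of 25 higher genes and in 19 of 33 lower genes. The order of the 2 pools over all tested genes was not counted. The median distance between the pools was 0.34 on the log2 scale for the higher genes and 0.27 for the lower genes. The median range of the 3 controls was 0.31 and 0.30. These genes were picked by a test that favours a small spread within groups, and a range of 3 pools is not measured like a distance of 2.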
